A study of Mus musculus with 2 samples.

Results

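The genes that encode the chains of collagen were examined for H3K4me1, the monomethylated form of lysine 4 of histone H3, which marks enhancers and the flanks of promoters, in E14TG2a.4 mouse embryonic stem cells. The members were all protein-coding genes of the mm10 genome (GRCm38) whose symbol reads Col, a number, a and a number, and 44 of 21887 protein-coding genes met this rule. All genes below means the 21486 of these with a known strand, the 44 included. E14TG2a.4 is a male line of strain 129/Ola, and its labels give an embryonic stage of 3.5 days. Chromatin carrying the mark was immunoprecipitated and its DNA sequenced (ChIP-seq) in 2 biological replicates, which form the only group, so the comparisons are between genes and not between conditions. The line comes from 1 donor, and whether the replicates were separate cultures is not stated beyond the label biological replicate. The measure was coverage, the percent of bases that lay inside the authors' peaks. It was taken over 40 kb centred on the transcription start site (TSS window, 20 kb to each side) and over the whole gene record from its first to its last base. The most 5′ base of the record served as TSS. No read counts were analysed here, so the sequencing depth behind these values is unknown.

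Collagens are secreted or membrane proteins whose chains wind into a triple helix, in which glycine recurs at regular steps. Fibrillar collagens form the banded fibrils of bone, skin, cartilage and tendon. Type IV collagen forms the sheet-like network of basement membranes, the layer on which epithelia rest, and type XVIII is a proteoglycan of the same layer whose end fragment is endostatin. Basement membrane is the first extracellular matrix of the early mouse embryo. The classes used here follow this textbook division, with 7 basement membrane genes (Col4 and Col18), 11 fibrillar genes, 9 FACIT genes (fibril-associated collagens with interrupted helices), 6 beaded filament genes (Col6), 3 short chain network genes, 4 transmembrane genes and 4 others. The fibrillar class also stood apart in the coding sequence, in a feature on which the division itself partly rests, as the name FACIT shows. This separation therefore describes the classes and is not a further result. In the longest annotated coding sequence of each gene, the longest unbroken run of Gly-X-Y triplets was 216 to 344 triplets in the fibrillar chains and 30 to 66 triplets in the basement membrane chains. In the other classes it was 23 to 113 triplets, a range that holds that of the basement membrane chains.

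The 6 type IV genes lie in 3 head-to-head pairs, each pair with its starts close together on opposite strands. The starts of Col4a1 and Col4a2 on chromosome 8 were 84 bp apart, those of Col4a3 and Col4a4 on chromosome 1 were 113 bp apart, and those of Col4a5 and Col4a6 on chromosome X were 1275 bp apart. The TSS windows of these pairs were the same sequence over 99.8%, 99.7% and 96.8% of their length, so each pair stands for 1 region rather than 2. RefSeq promoter entries on GRCm38.p6 were found for 35 of the 44 genes. The 250 bases before the listed start are shown for 5 of these genes, on the strand of the gene. They were chosen because the mark differed among them: a shared CpG-rich promoter without a peak (Col4a1), a shared promoter under the only replicated peak of its window (Col4a4), the upstream and downstream promoters of the most covered gene (Col18a1), a fibrillar promoter under a peak (Col1a2) and a fibrillar promoter with no peak in its window (Col3a1). Capitals mark GGGCGG (GC box), CCAAT and TATAAA on either strand. A GC box on the reverse strand can share letters with a CCAAT, which did not happen in these stretches, and a match describes the letters only.
Col4a1 promoter, chr8:11312827-11313076, minus strand: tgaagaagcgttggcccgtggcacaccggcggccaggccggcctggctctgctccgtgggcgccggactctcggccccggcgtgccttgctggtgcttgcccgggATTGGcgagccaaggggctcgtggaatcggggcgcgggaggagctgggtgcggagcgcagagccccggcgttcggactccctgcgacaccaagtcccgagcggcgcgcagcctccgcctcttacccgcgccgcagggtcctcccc
Col4a4 promoter, chr1:82586850-82587099, minus strand: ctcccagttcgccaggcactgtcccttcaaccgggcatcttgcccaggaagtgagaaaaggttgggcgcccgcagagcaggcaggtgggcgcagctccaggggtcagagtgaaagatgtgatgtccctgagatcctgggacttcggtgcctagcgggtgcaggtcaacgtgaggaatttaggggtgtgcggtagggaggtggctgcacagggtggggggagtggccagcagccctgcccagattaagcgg
Col18a1 upstream promoter, chr10:77166531-77166780, minus strand: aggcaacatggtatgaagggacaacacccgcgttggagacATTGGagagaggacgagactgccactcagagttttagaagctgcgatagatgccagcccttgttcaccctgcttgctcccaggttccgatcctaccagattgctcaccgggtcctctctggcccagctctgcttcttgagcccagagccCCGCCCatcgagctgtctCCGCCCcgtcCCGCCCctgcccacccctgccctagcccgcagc
Col18a1 downstream promoter, chr10:77113706-77113955, minus strand: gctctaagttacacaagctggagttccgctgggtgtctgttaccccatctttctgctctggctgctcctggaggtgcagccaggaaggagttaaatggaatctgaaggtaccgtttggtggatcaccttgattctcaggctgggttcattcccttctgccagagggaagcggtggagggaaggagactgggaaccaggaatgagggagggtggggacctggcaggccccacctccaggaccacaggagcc
Col1a2 promoter, chr6:4505368-4505617, plus strand: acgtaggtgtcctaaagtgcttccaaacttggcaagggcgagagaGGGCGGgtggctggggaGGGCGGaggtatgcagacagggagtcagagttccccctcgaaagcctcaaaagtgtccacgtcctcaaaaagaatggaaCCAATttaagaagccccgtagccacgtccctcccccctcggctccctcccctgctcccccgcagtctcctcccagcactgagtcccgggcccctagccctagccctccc
Col3a1 promoter, chr1:45311288-45311537, plus strand: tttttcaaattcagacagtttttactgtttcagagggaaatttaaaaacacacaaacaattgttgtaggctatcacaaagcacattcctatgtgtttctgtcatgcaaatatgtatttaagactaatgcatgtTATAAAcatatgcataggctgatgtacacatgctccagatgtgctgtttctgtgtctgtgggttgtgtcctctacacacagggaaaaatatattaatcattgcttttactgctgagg

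These stretches differed in base composition as well as in the mark. The Col4a1 stretch held 31 CpG dinucleotides at 74.4% G+C and no base of it was inside a peak of either replicate. The Col3a1 stretch held none at 35.2% G+C, and it too was free of peaks. The Col4a4 stretch held 10 CpGs and lay wholly inside a peak in replicate 1 but over only 32.4% of its length in replicate 2. Of the Col18a1 promoters, the upstream one had 12 CpGs with 64.0% and 65.2% of its bases in peaks of replicates 1 and 2. The downstream one had 3 CpGs and was covered over its whole length in both. The Col1a2 stretch, with 11 CpGs and 2 GC boxes, was also wholly covered in both. Over the 300 bp entries, which add the 50 bases after the start, a GC box was found in 23 of the 38 collagen promoters (60.5%) and in 46.2% of all protein-coding promoters. A CCAAT was found in 34.2% against 38.2%, and TATAAA in 13.2% against 12.6%. The basement membrane and fibrillar entries had similar median G+C contents, 63.3% and 61.4%, and similar CpG ratios (observed to expected), 0.538 and 0.542.

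Most collagen genes, like most genes, had a peak near their start, but their median coverage around it was below that of all genes. A peak of the authors' replicated list lay within 2 kb of the TSS at 34 of 44 genes (77.3%), which is near the 72.8% of all protein-coding genes. Coverage of the TSS window was above the median of all genes in both replicates at 17 members (38.6%), against 48.2% of all genes. The median member had 7.89% of its window in peaks in replicate 1 and 8.09% in replicate 2, against 14.0% and 13.7% over all genes. Coverage of the gene record was above its median in both replicates at 13 members (29.5%), against 47.5% of all genes, and the medians were 5.14% and 4.48%, against 12.4% and 12.2%. No base of the window was covered in either replicate at 3 members, Col3a1, Col4a5 and Col4a6, or 6.8%, against 15.6% of all genes. The replicated list covered 9.75% of the median member's window and 5.48% of its record. Genes are not replicates, so no test across them was made.

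**Figure D1:**
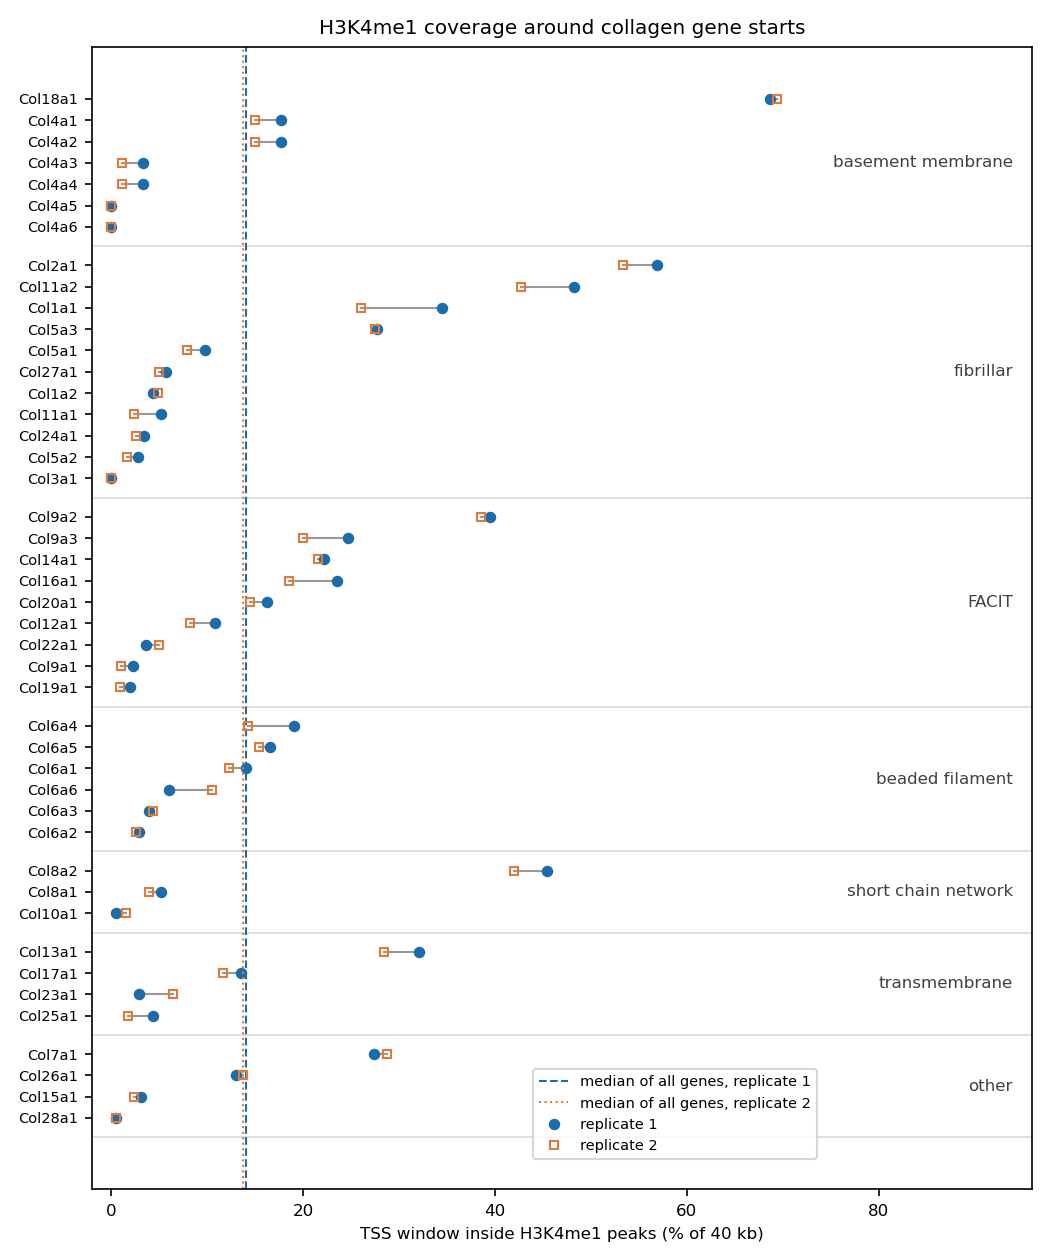
Each row is 1 collagen gene, grouped by class and ordered by its mean. The horizontal axis gives the percent of the TSS window (40 kb in all) inside H3K4me1 peaks in replicate 1 (filled circles) and replicate 2 (open squares), and the vertical lines give the medians of all genes, 14.0% and 13.7%. Each class has genes on both sides of the lines, 17 genes lie to the right of both in both replicates, and Col18a1 has the highest value.

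The basement membrane genes spanned the whole range seen among collagens. Col18a1 was the most covered of the 44 genes, with 68.7% of its TSS window in peaks of replicate 1 and 69.4% in replicate 2. Its mean of 69.0% ± 0.479 (SD, n = 2) was higher than that of 98.1% of all genes. Col4a1 and Col4a2, which encode the chains of the common type IV molecule, both had 17.7% and 15.0%, slightly above the medians of all genes. Col4a3 and Col4a4, whose chains are typical of the kidney filter, both had 3.25% and 1.14%. At Col4a5 and Col4a6 there was no covered base in either replicate, in the window or in the records of 214 and 309 kb. The 3 pairs and Col18a1 thus lay at 4 separate levels whose replicate values did not overlap. Col4a5 and Col4a6 are on chromosome X, where the median gene had 0.964% and 0.485% and no base was covered at 39.3% of 944 genes. The part of the chromosome in the absence of peaks at this pair was not tested.

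The 2 type IV pairs with peaks differed in the form of those peaks. Between the starts of Col4a1 and Col4a2 no replicated peak was listed. The nearest peaks on either side of the Col4a1 start lay 311 bp upstream and 518 bp downstream on its strand. The upstream peak, at chr8:11313200-11314603, lay inside Col4a2, 395 bp from that gene's start. When peaks up to 1 kb apart were merged, those on both sides formed a domain of 7070 bp across the pair, and the peaks of replicates 1 and 2 filled 76.9% and 63.7% of it. In the same window the side of Col4a1 was more covered, with 25.7% and 23.7% of the 20 kb downstream of its start against 9.61% and 6.25% upstream. The Col4a3 and Col4a4 starts shared a single replicated peak of 1317 bp at chr1:82586310-82587626, the only one in their windows. Its signal value of 3.48, the authors' own score per peak, was below the median of 4.22 over the replicated list, and 88.9% of it was in peaks of replicate 1 but 34.5% in replicate 2. Beyond 20 kb from the start, the records of Col4a3 and Col4a4 had no covered base, whereas Col4a1 had 5.17% and 4.20% and Col4a2 had 11.0% and 9.55%.

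Col18a1 (chromosome 10 from 77052178 to 77166530, minus strand, gene ID 12822) held the widest domain of any collagen gene. Joined replicated peaks ran for 62538 bp, from 954 bp to 63491 bp downstream of its start, and the next widest among the members was 18860 bp. The peaks of replicates 1 and 2 filled 84.6% and 88.6% of it. It contained the downstream promoter listed by RefSeq, 52825 bp from the upstream one, whose own TSS window had 78.3% and 82.1% in peaks. Over the record, coverage was 63.4% and 65.8%, with most of it towards the 5′ end. With the record cut into 5 equal parts from 5′ to 3′, it was 83.5% and 86.8% in part 1, 93.7% and 94.8% in part 2, 70.1% and 74.8% in part 3, 31.5% and 34.9% in part 4 and 38.2% and 37.5% in part 5. The strongest replicated peak of the window, at chr10:77150035-77152293, had a signal value of 13.6 and ranked 349 of 226060.

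Among the fibrillar genes 4 were well covered and 7 were not. Col2a1, the main collagen of cartilage (chromosome 15 from 97975602 to 98004724), had 56.9% and 53.3% of its window in peaks. Col11a2, a minor chain of cartilage fibrils, had 48.2% and 42.7%. Col1a1, a chain of the type I collagen of bone and skin, had 34.5% and 26.0%, and Col5a3, a type V chain, had 27.7% and 27.5%. All 4 lay above the medians of all genes in both replicates. The other chain of type I collagen, Col1a2, had only 4.34% and 4.85%, so the 2 genes whose products are assembled into 1 molecule had levels that did not overlap. Col5a1, a chain of the type V collagen that nucleates fibrils, had 9.77% and 7.93%. Col27a1, Col11a1, Col24a1 and Col5a2 lay between 1.64% and 5.68% in both replicates. Col3a1, the collagen of vessels and soft organs, had no covered base in its window or record. Except for Col3a1, every fibrillar gene had a replicated peak within 2 kb of its TSS, and at Col5a2, Col11a1, Col24a1 and Col27a1 few others were listed, with 2 or 3 peaks in each window.

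Neighbouring genes shared some of these windows. The window of Col11a2 also held the starts of Ring1, H2-Ke6, Slc39a7 and Rxrb, all upstream, where coverage was 61.4% in both replicates against 35.1% and 24.0% downstream of the Col11a2 start. That of Col5a3 held the start of Rdh8. At Col2a1, which had no other protein-coding start in its window, the order was the opposite, with 76.5% and 72.9% downstream and 37.2% and 33.6% upstream. Its record was covered by 65.3% and 57.6%, mainly in parts 1 to 3 of 5, where values ran from 75.2% to 90.1%. Col1a1, also alone in its window, was covered at both ends of its 16.8 kb record, with 73.9% and 58.6% in the part at its 3′ end and 56.9% in replicate 1, and less in replicate 2, in the part at its 5′ end. In the parts between, coverage was 2.05% to 15.8% in replicate 1 and 0 in replicate 2. The replicates differed most at this gene, by 8.46 percentage points in the window and 10.6 in the record.

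**Figure D2:**
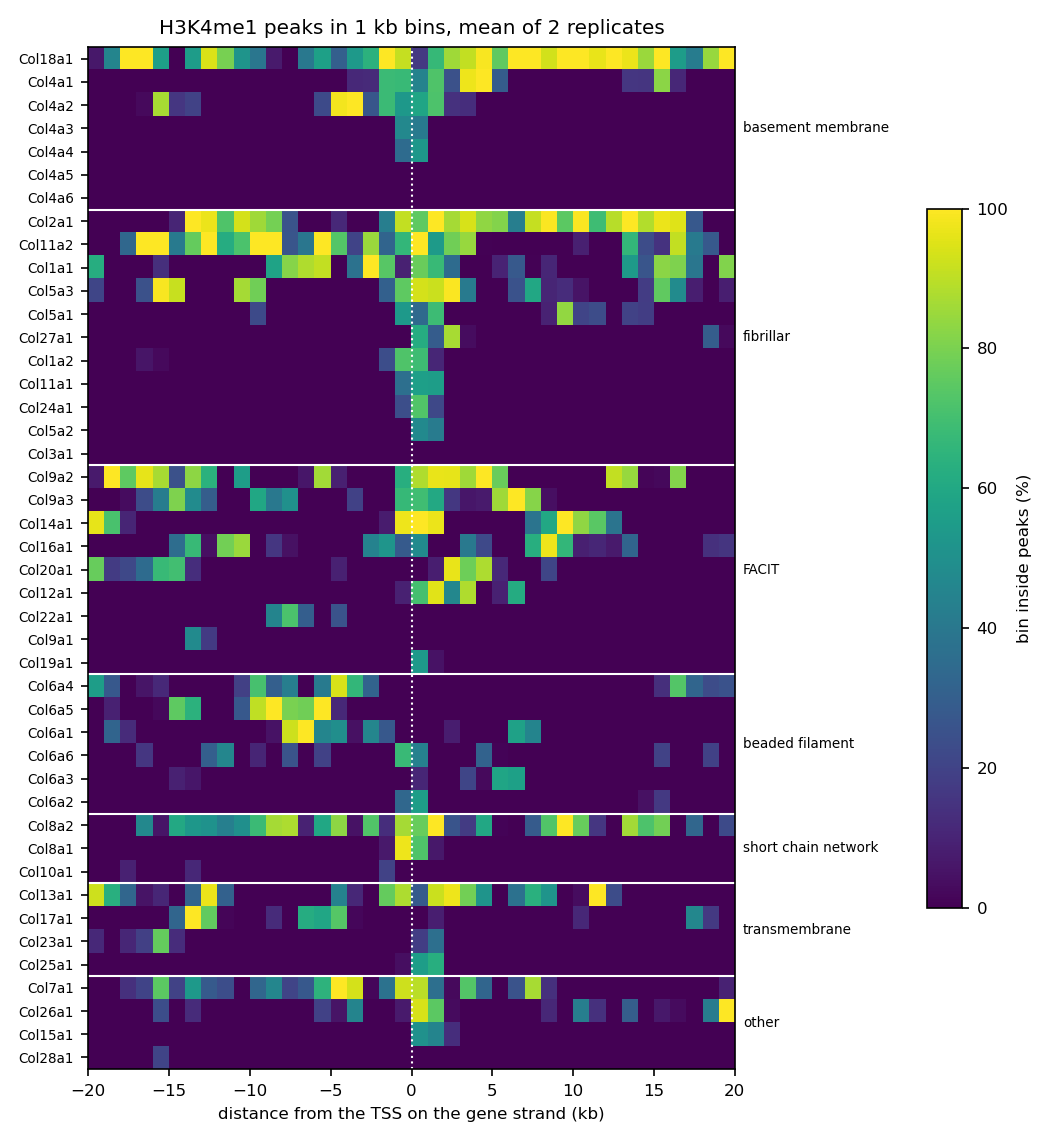
Rows are the 44 collagen genes, in the order of the plot of coverage by gene, and columns are 1 kb bins from 20 kb upstream to 20 kb downstream of the TSS on the gene strand. Colour gives the percent of each bin inside peaks, as the mean of 2 replicates. Several low genes, such as Col1a2, Col11a1, Col24a1 and Col25a1, have peaks almost only in the bins next to the TSS, whereas Col18a1 on both sides and Col2a1 downstream have peaks in most bins.

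The contrast of basement membrane with fibrillar genes depended on how the genes were counted. The median of the 7 basement membrane genes was 3.25% in replicate 1 and 1.14% in replicate 2 for the TSS window, and that of the 11 fibrillar genes was 5.68% and 4.97%. The difference, basement membrane minus fibrillar, was -3.14 percentage points ± 0.99 (SD, n = 2). For the gene record the medians were 0.615% and 0.195% for the basement membrane genes and 2.02% and 2.74% for the fibrillar genes, and the difference was -1.97 ± 0.81. The difference turned positive when each type IV pair was counted once, at 3.92 ± 1.20 for the window and 2.32 ± 1.14 for the record. It was also positive for autosomal genes only, without Col4a5 and Col4a6, at 11.0 ± 1.41 and 5.80 ± 1.33. With Col15a1, a relative of Col18a1, added to the basement membrane genes, the record difference was 0.527 ± 0.83, positive in replicate 1 (1.11) but not in replicate 2 (-0.0581), and the window difference stayed negative. The direction of this contrast was therefore set by which basement membrane genes were counted. In counts, 3 of 7 basement membrane genes and 4 of 11 fibrillar genes lay above the medians of all genes for the window. The share of all genes was 48.2%. Of the 3, Col4a1 and Col4a2 share 1 region, and their 15.0% in replicate 2 was below the autosomal median of 15.1%. A promoter peak was found at 5 of 7 and 10 of 11, against 72.8% of all genes.

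**Figure D3:**
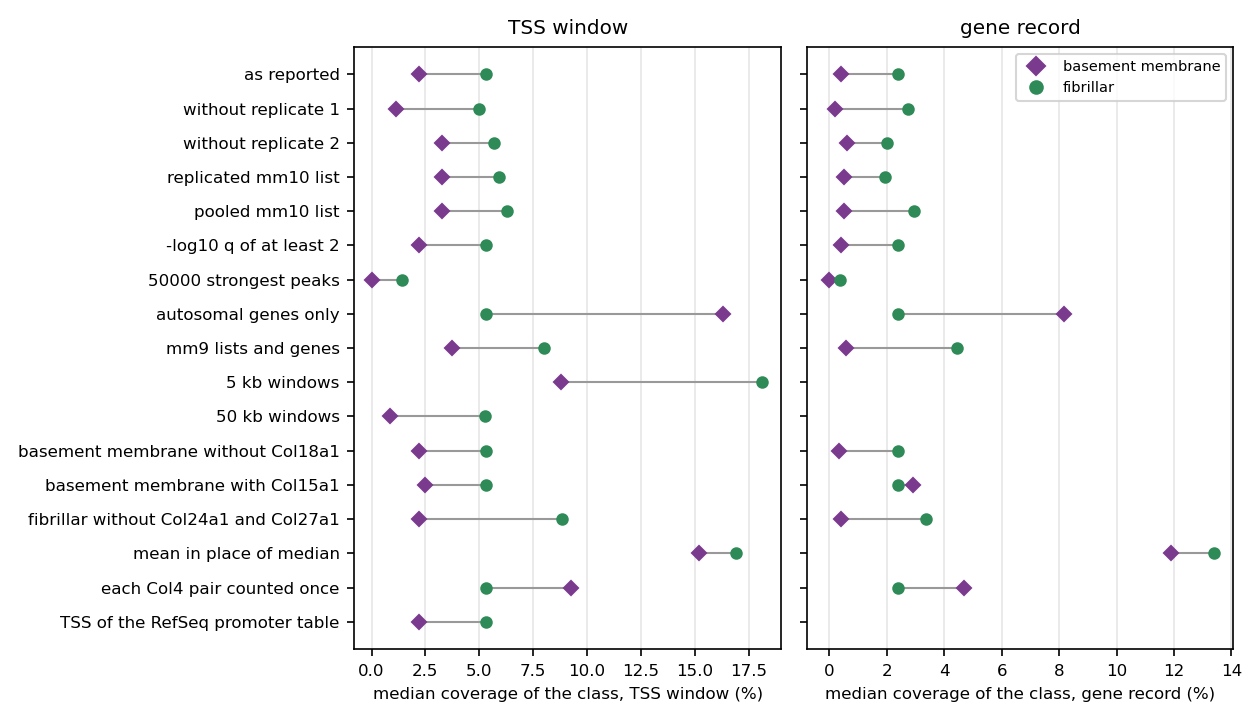
Median coverage of the basement membrane genes (diamonds) and the fibrillar genes (circles) under each setting named on the vertical axis, for the TSS window (left) and the gene record (right), in percent and as the mean of the replicate medians where both were used. The row for means shows class means. The diamond lies to the right of the circle on both sides for autosomal genes and for pairs counted once, and on the right side alone with Col15a1 added.

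The remaining classes also held high and low genes, over narrower ranges. Among the FACIT genes, whose products sit on the surface of fibrils, coverage ran from 39.5% and 38.5% at Col9a2 to 1.99% and 0.943% at Col19a1. The 3 chains of type IX collagen of cartilage did not share a level, since Col9a3 had 24.7% and 20.0% and Col9a1 had 2.23% and 1.03% with no promoter peak. The 6 genes of the type VI beaded filaments ran from 19.0% and 14.2% at Col6a4, which with Col6a5 was above the medians of all genes, down to 2.92% and 2.59% at Col6a2, and 3 of them (Col6a3, Col6a4 and Col6a5) had no replicated peak within 2 kb of the TSS. At Col6a5 the covered bases were all upstream, 33.0% and 30.9% of that side, and its record was covered again in part 3 of 5, with 38.0% and 40.4%. In the short chain class Col8a2 had 45.4% and 42.0%, whereas Col10a1, the collagen of hypertrophic cartilage, had 0.455% and 1.55%. Among the transmembrane collagens Col13a1 had 32.1% and 28.4%, Col25a1 4.37% and 1.74% and Col23a1 2.85% and 6.38%, and Col17a1, a hemidesmosome protein, had 13.5% and 11.6% without a promoter peak. Col7a1, which forms the anchoring fibrils of skin, had 27.4% and 28.7%, with the start of Uqcrc1 in its window, and Col28a1 had 0.512% and 0.510%.

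In a few long genes the mark also lay far from the start. Col26a1 had 13.0% and 13.7% of its TSS window in peaks but 26.8% and 25.0% of its record, and of its 5 parts the one at the 3′ end was the most covered, with 40.4% and 41.5%. Its widest domain, of 10692 bp, began 108756 bp from the TSS. Col13a1 was covered by 35.4% and 34.4% beyond 20 kb from its start, with a domain of 12337 bp that began 41155 bp from the TSS. In Col15a1 part 2 of 5 had 19.1% in both replicates and the others had at most 5.84%. Domains of at least 10 kb overlapped 6 of 44 records, those of Col18a1, Col2a1, Col8a2, Col13a1, Col26a1 and Col11a2. This share of 13.6% is near the 16.7% of all genes, but collagen records are longer than most. At 50 kb or more it was 3 of 29 members (10.3%) against 21.6% of all genes. Under 50 kb it was 3 of 15 (20%) against 15.3%. These are small counts, and the differences were not tested. With the mm9 peak lists, for whose build exons were annotated, exon bases were more covered than intron bases in both replicates at 21 of 44 genes and less covered at 14. Among 19444 annotated protein-coding genes with introns the shares were 31.6% and 35.9%. The collagen medians were 9.30% of exon and 5.54% of intron bases in replicate 1, and 9.64% and 6.02% in replicate 2. Those of all such genes were 23.9% and 24.0% in replicate 1, and 23.0% and 23.6% in replicate 2.

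**Figure D4:**
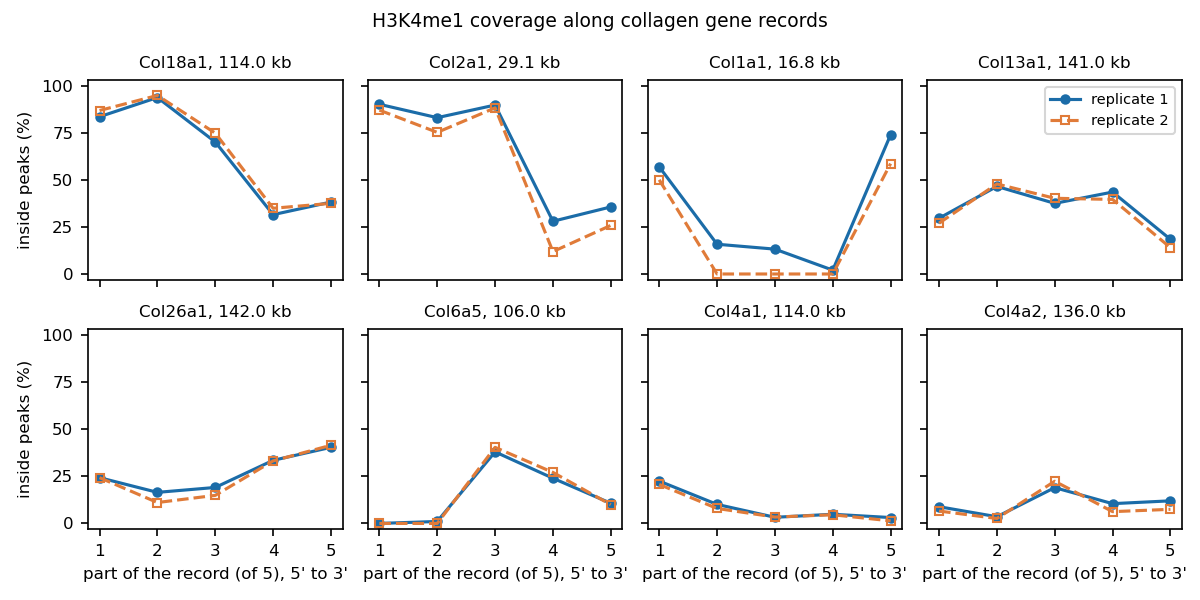
Percent of bases inside peaks in 5 equal parts of the gene record, from 5′ to 3′, for 8 collagen genes in replicate 1 (filled circles, solid lines) and replicate 2 (open squares, dashed lines), with the record length in each title. Col18a1 and Col2a1 are highest in the first 3 parts, Col1a1 at both ends, Col26a1 in the last and Col6a5 in the third.

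Averaged over the members, the mark was concentrated at the start of the genes. In the first 1 kb downstream of the TSS, 50.6% of the sequence was in peaks in replicate 1 and 37.0% in replicate 2, against 31.6% and 24.7% over all genes. In the 1 kb upstream the values were close, with 35.9% and 30.6% against 34.7% and 29.8%. Between 1 and 2 kb downstream, where all genes were highest, the members had 39.2% and 32.6% against 41.2% and 37.7%. Between 5 and 6 kb downstream the members were lower, with 11.3% and 8.76% against 22.3% and 22.9%. The fibrillar genes had 69.4% and 55.7% in the first 1 kb and the basement membrane genes 40.7% and 20.4%. The order of these classes was not the same in every bin. Between 4 and 5 kb downstream the basement membrane genes had 28.4% and 28.5% and the fibrillar genes 7.54% and 7.78%. In this bin only Col4a1 and Col18a1 of the basement membrane genes had covered bases, with 100% and 98.7% in replicate 1. Of the fibrillar genes only Col2a1 had any in replicate 1 (82.9%). Between 2 and 1 kb upstream the basement membrane genes had 37.5% and 29.9% against 20.7% and 16.2%. There their covered bases were only at Col18a1 and at Col4a1 and Col4a2, which share 1 region. These basement membrane means thus rest on few loci. At 16 members (36.4%) the TSS base itself was inside a replicated peak, against 18.9% of all genes. They included Col1a1, Col1a2, Col5a3, Col11a2, Col24a1, Col4a3 and Col4a4. No test across genes was made of these differences.

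Record length and replicate also went with the level. Collagen records are long, with a median of 114.4 kb against 17.3 kb over all genes. The 15 members under 50 kb had median window coverage of 24.7% and 20.0%, and 9 of them were above the medians of all genes in both replicates. The 29 longer members had 5.13% and 4.96%, and 8 of them were above. Among all genes the share above the medians was 50.3% under 50 kb and 41.1% at 50 kb or more. Their window medians in replicates 1 and 2 were 15.4% and 14.9% under 50 kb, and 11.0% and 11.1% at 50 kb or more. The record medians under 50 kb were 15.3% and 12.6% for members and 15.8% and 14.9% for all genes. At 50 kb or more they were 2.24% and 1.84% against 7.11% and 7.58%. The lower window median of the members was thus seen in the longer records only. Across the 44 members, which share both libraries and include pairs with common windows, the Spearman coefficient of record length with window coverage was -0.434, against 0.0936 over all genes. Replicate 1 gave the higher window coverage at 32 members and replicate 2 at 9, and the median absolute difference was 1.30 percentage points. Over all genes replicate 1 was higher at 10830 and replicate 2 at 7303, with a median absolute difference of 1.37.

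Among genes of other basement membrane proteins the median was higher than among the 7 basement membrane collagen genes (2.19% ± 1.49), but the ranges overlapped. The collagen median depends on the counting. It was 9.25% with each type IV pair counted once and 16.3% for autosomal genes only, and the genes of the other proteins are all autosomal. Of 16 such genes, which encode laminins, nidogens, perlecan, agrin and peroxidasin, 14 had a promoter peak and 12 lay above the medians of all genes in both replicates, with a median of 31.8% ± 1.00 (SD, n = 2, over the replicate medians). Hspg2, the perlecan gene, had 88.1% and 81.9%, and Lama5, a laminin chain gene, had 77.4% and 73.2%, whereas Lama2, the laminin chain of muscle, had 2.35% and 1.49%, in the range of Col4a3 and Col4a4. In the collagen biosynthesis list 16 of 17 genes could be measured. All 16 had a promoter peak, 9 were above the medians, and the list median was 24.4% ± 0.22. The prolyl hydroxylase family gene P3h3 had 48.5% and 45.4%, the collagen galactosyltransferase gene Colgalt1 had 46.6% and 42.7%, and P3h2 had 1.49% and 1.25%. In the list of processing and crosslinking genes 7 of 13 were above, with a median of 15.8% ± 1.51. Pcolce, an enhancer of procollagen cleavage, had 63.5% and 56.4%, Adamts14, a procollagen protease gene, had 34.8% and 32.1%, and the crosslinking oxidase gene Loxl2 had no covered base in its window. Of the collagen receptors 4 of 10 were above, with a median of 12.2% ± 0.67. They were led by the receptor kinase gene Ddr1 with 68.5% and 68.4% and the integrin gene Itga10 with 37.6% and 34.6%, and Gp6, a platelet receptor gene, had no covered base. These counts stand beside 72.8% of all genes with a promoter peak and 48.2% above the medians.

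**Figure D5:**
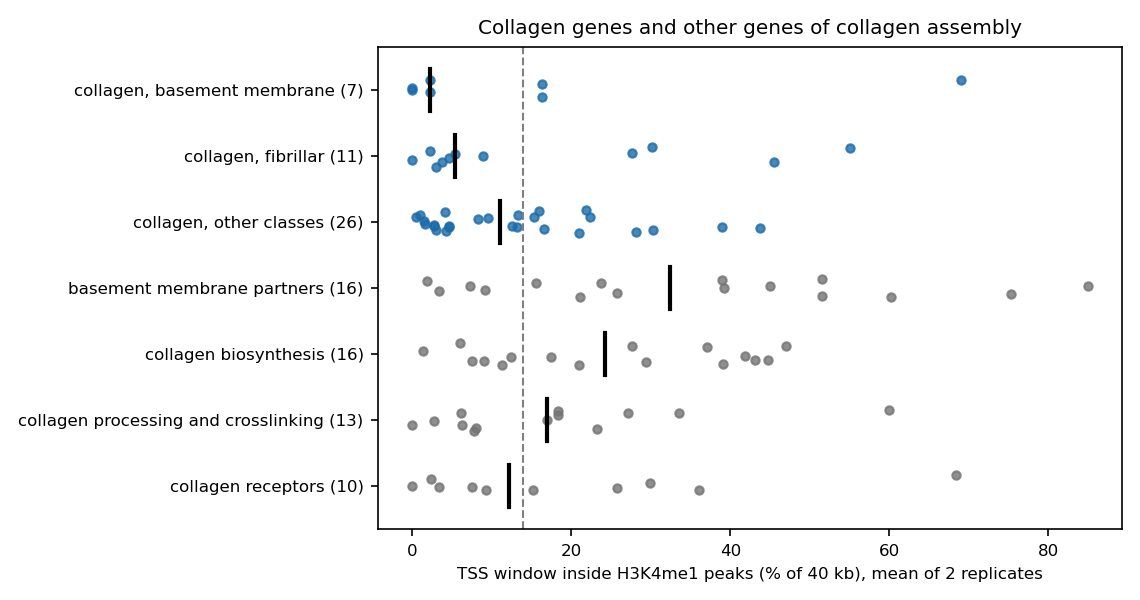
Each point is 1 gene, placed by the percent of its TSS window inside H3K4me1 peaks as the mean of 2 replicates, for the collagen genes (blue) and 4 lists of genes of collagen assembly and reception (grey), with the number of genes in parentheses. Black bars are medians over genes, and the dashed line is the median of all genes, 13.9%. The basement membrane partners have the bar farthest to the right. The basement membrane collagens, with all their genes counted, have the bar farthest to the left, a place that depends on this counting.

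Marker lists of 3 cell types were set beside the label. They were chosen with earlier results of these data known, so they describe the values and cannot test the labelled cell type. All 10 embryonic stem cell genes lay above the medians of all genes in both replicates, with 78.8% and 75.8% at Klf2 and 75.8% and 73.1% at Tbx3. Of 10 fibroblast genes 4 did, led by Pdgfrb with 41.6% and 37.9% and Thy1 with 31.7% and 29.9%, and Dcn, Lum and Fap had no covered base in their windows. Of 10 extraembryonic endoderm genes 6 did, led by the matrix protein gene Sparc with 60.9% and 65.4% and Hnf4a with 37.6% and 33.5%, and Dab2 had none. Over all genes 48.2% lay above the medians in both replicates, so the fibroblast and endoderm counts are near that share. Peaks give no share of cells, and the part of other cell types in the collagen values was not tested.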

How the data were processed

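H3K4me1 ChIP-seq of 2 replicates was analysed from peak lists. On mm10 the authors made narrowPeak files of replicate 1, of replicate 2, of both pooled and of the peaks they kept as replicated, and on mm9 broadPeak files, per the deposited read-me lists. Aligner and peak caller: not given in the sources used here. The replicate 2 and pooled lists drew on 1 further file, with its role not stated, that the replicate 1 list did not. The deposited mm10 lists give a signal value and a −log10 p and −log10 q per peak, and the deposited mm9 lists a signal value with its q-value and p-value. The mm10 lists held 313453 (replicate 1), 325226 (replicate 2), 309213 (pooled) and 226060 (replicated) peaks.

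Coverage was the percent of bases inside peaks, counted from 1 bp. Protein-coding records came from RefSeq (GRCm38.p6) and strands from its promoter table (17492 genes) or GENCODE vM1 by symbol or synonym (3994). Where both gave a strand, 49 of 16347 differed and the former was used. The 401 genes without a strand were left out. Exons and coding sequences came from GENCODE vM1 on mm9, and no coordinate was converted. Triplets were counted in runs of at least 3. No promoter entry was used for Col1a1, Col2a1, Col4a3, Col5a2, Col9a3, Col12a1, Col14a1, Col22a1 and Col26a1. Members, classes and lists were chosen with earlier results of these data known. Named were all basement membrane and fibrillar genes, the highest and lowest of other classes, and the 2 highest and the lowest of each pathway list; others were named after their values were seen. Alternatives were other lists, thresholds, windows, classes and replicates; the TSS of the promoter table was an alternative chosen after seeing the data. The coverage function was tested on simulated data. With 1 group there was no test, and mean and SD describe these 2 libraries. Figures were drawn with matplotlib 3.10.9, and values computed in Python 3.11.15 with pandas 2.3.3, numpy 2.4.6 and scipy 1.17.1.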

Additional observations from a re-analysis of the deposited data

How the results depend on the processing

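The count of collagen genes with a promoter peak kept its size under 7 alternatives, with 34 of 42 among autosomal genes and 30 to 39 of 44 in the others. The share of all genes moved as well, from 69.4% within 1 kb to 76.2% within 5 kb. The count above the medians of all genes was 17 of 44 in the main setting, against 48.2% of all genes. It lay between 13 and 18 under 10 of 11 alternatives and was 11 of 44 with the mm9 lists, against 47.8% of all mm9 genes. For autosomal genes it was 13 of 42, against 48.1% of all autosomal genes. With 50 kb windows it was 13 of 44 against 48.3%, and with the 50000 strongest peaks 15 of 44 against 44.5%. The median window coverage of 7.99% was 7.89% to 8.09% with each replicate left out, 9.75% with the replicated list, 11.4% with the pooled list, 7.80% with a −log10 q of at least 2, 1.06% with the 50000 strongest peaks, 9.83% for autosomal genes, 14.7% with the mm9 lists, 16.4% with 5 kb windows and 6.93% with 50 kb windows. The median of all genes was 15.7% with the replicated list, and 15.4% and 15.1% for autosomal genes in replicates 1 and 2. It is not given here for the mm9 lists or the other windows, so those values cannot be set beside the main medians of all genes. The window difference of basement membrane and fibrillar genes (-3.14) was -3.83 to -2.44 with each replicate left out, -1.39 with the strongest peaks, -4.25 on mm9, -9.29 and -4.37 with 5 and 50 kb windows, -6.66 without Col24a1 and Col27a1 and -1.77 as means. It was positive for autosomal genes (11.0) and with each type IV pair counted once (3.92). The record difference (-1.97) was -2.54 to -1.40 with each replicate left out, -0.374 with the strongest peaks, -3.87 on mm9 and -2.96 without Col24a1 and Col27a1, and positive for autosomal genes (5.80), with pairs counted once (2.32) and, in replicate 1 and the mean only, with Col15a1 (0.527). Pairs and chromosome X shift these differences by construction, since they change which genes are counted. The same holds for adding Col15a1 and for leaving out Col24a1 and Col27a1. For the other alternatives the cause was not tested. Depth is unknown, so an absence of peaks does not show an absence of the mark. No paired analysis was possible because there is only 1 group.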
